A study of Mus musculus with 12 samples.

Results

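Integrins and the focal adhesion proteins that couple them to the actin cytoskeleton were followed in BV2 cells, an immortalised mouse microglial line, by RNA sequencing. The members were a list of 37 genes chosen by name: 9 integrin subunits, 10 integrin activators and actin links, 5 genes of the integrin-linked kinase complex, 8 adhesion kinases, adaptors and scaffolds and 5 regulators of actin and contraction. Of the 37, 34 had a row among the 27487 genes of the table and 33 had enough counts to be tested, while Parva, Myl9 and Cav1 are not analysed here and Fermt2 was too low to test. The group labelled Neu held BV2 cells grown together with primary mouse neutrophils, Neu+NETS held BV2 cells grown together with neutrophils that had been given phorbol 12-myristate 13-acetate (PMA) so that they would release neutrophil extracellular traps (NETs), and CTR held BV2 cells on their own, with 4 libraries in each group. No group received PMA without neutrophils, so PMA and NETs cannot be told apart, and the labels do not say that neutrophils were removed before RNA was taken. All libraries come from 1 cell line, the labels also name retina as tissue, and nothing in them says that the replicates were separate cultures, so p-values reflect only how far these libraries vary, and that variation may be technical.

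Integrins are pairs of an alpha and a beta subunit that span the membrane and bind matrix proteins or counter-receptors on other cells. Talin and kindlin bind the beta tail and switch the receptor on, vinculin, filamin and alpha-actinin link it to actin filaments, and focal adhesion kinases with Src phosphorylate adaptors such as p130Cas (Bcar1) and paxillin to signal inward. In microglia and other myeloid cells the beta2 integrins, kindlin-3 (Fermt3), gamma-parvin (Parvg) and Pyk2 (Ptk2b) are the typical forms, and they serve migration, phagocytosis and attachment.

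Library totals lay between 53512190 and 68316549 estimated counts. Levels are given as FPKM, fragments scaled to transcript length and sequencing depth, as computed by the authors, and differences as log2 fold changes of edgeR's quasi-likelihood test on the counts, with adjusted p-values after Benjamini-Hochberg and calls at an adjusted p under 0.05. In a population of cells, fewer cells of a type and less RNA per cell cannot be told apart. The summed level of 10 microglia and macrophage markers was 769 to 800.3 FPKM in Neu, 532 to 549 in Neu+NETS and 840.4 to 891 in CTR, and C1qa was below 1 FPKM in every library. All 10 were called lower in Neu+NETS than in Neu and than in CTR, where 33.1% and 23.7% of all tested genes were called lower. Csf1r, the receptor that defines this lineage, averaged 87.9 FPKM in Neu, 26.7 in Neu+NETS and 91.3 in CTR. In Neu against CTR, 2 of the 10 were called higher and 3 lower, 50% called where 54.1% of all tested genes were called. Among these were Cx3cr1 at 5.48 FPKM in Neu against 0.718 in CTR (7.90-fold, adjusted p = 1.1e-08), Fcgr1 at 25.4 against 45.3 FPKM and Trem2 at 29.9 against 40.7 FPKM. Of 15 neutrophil markers 10 had a row, and their sum was 6.92 to 7.20 FPKM in Neu, 0.797 to 1.38 in Neu+NETS and 5.69 to 7.03 in CTR. Most of that sum was Csf3r, which averaged 4.15 FPKM in Neu, 0.691 in Neu+NETS and 5.15 in CTR, and 7 of the 10 were below 1 FPKM in every library. Of the 5 tested, 2 granule genes (40%) were called higher in Neu than in CTR and 0 lower. Over all tested genes, 54.1% were called in that comparison. Mmp9 averaged 1.46 FPKM in Neu, 0.215 in Neu+NETS and 0.548 in CTR (2.76-fold higher in Neu than in CTR, adjusted p = 0.00012). Lcn2 averaged 0.95, 0.0908 and 0.223 FPKM in the same order of groups (4.20-fold, adjusted p = 5.1e-06). Elane, which is more specific to neutrophils, averaged 0.0969 FPKM in Neu, 0 in Neu+NETS and 0.0381 in CTR. The part of neutrophil RNA in the results that follow was not tested. Of 8 markers of retinal neurons and glia, 5 had a row, and all except Glul, which many cell types express, were below 1 FPKM in every library.

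Most members were higher in Neu than in CTR, and most were lower in Neu+NETS than in Neu. Against CTR, 20 of the 33 tested members were called higher in Neu and 9 lower, that is 87.9% called where 54.1% of all tested genes were called. The background splits into 26.1% higher and 27.9% lower, and the median log2 fold change was 0.23 over the members and 0.020 over all genes. Against the same CTR libraries, 9 members were called higher in Neu+NETS and 15 lower, 72.7% where the background is 45.3% (21.6% higher and 23.7% lower), with a median of -0.11 over the members and 0.00021 over all genes. In Neu+NETS against Neu, 5 members were called higher and 24 lower, 87.9% where the background is 62.5% (29.4% higher and 33.1% lower), with a median of -0.64 over the members and -0.049 over all genes. The FPKM of the libraries did not overlap between Neu and CTR in 29 members (20 higher and 9 lower in Neu, where 51.6% of all tested genes did not overlap, 22.5% higher and 29.0% lower). Between Neu+NETS and CTR this held for 24 members (10 higher and 14 lower, background 42.2%, 23.7% and 18.4%), and between Neu+NETS and Neu for 29 (7 higher and 22 lower, background 59.6%, 32.6% and 26.9%). Limma on log2(FPKM + 1), which takes the authors' scaling, tested 11626 genes where edgeR tested 16387, and shifted the split over all genes. It called 27.4% higher and 43.4% lower in Neu against CTR (26.1% and 27.9% in edgeR). In Neu+NETS against CTR it called 34.6% higher and 24.5% lower (21.6% and 23.7% in edgeR). In Neu+NETS against Neu it called 45.9% higher and 30.8% lower (29.4% and 33.1% in edgeR). Of the 31 members it tested, it called 20 higher and 10 lower, 9 higher and 13 lower, and 7 higher and 21 lower, in the same order of comparisons. The members are well expressed, so the background was also taken over the 11227 tested genes with a mean of at least 1 FPKM. Among these, 69.1%, 57.4% and 75.9% were called in the 3 comparisons in the order given, and 29, 23 and 28 of the 31 members at that level were called. Calls past 2-fold were made for 1 member of 33 in Neu against CTR, a smaller share than the 9.12% of all genes. In Neu+NETS against CTR they were made for 4 of 33, a larger share than the 7.24% of all genes. In Neu+NETS against Neu they were made for 7 of 33, somewhat more than the 17.4% of all genes.

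**Figure D1:**
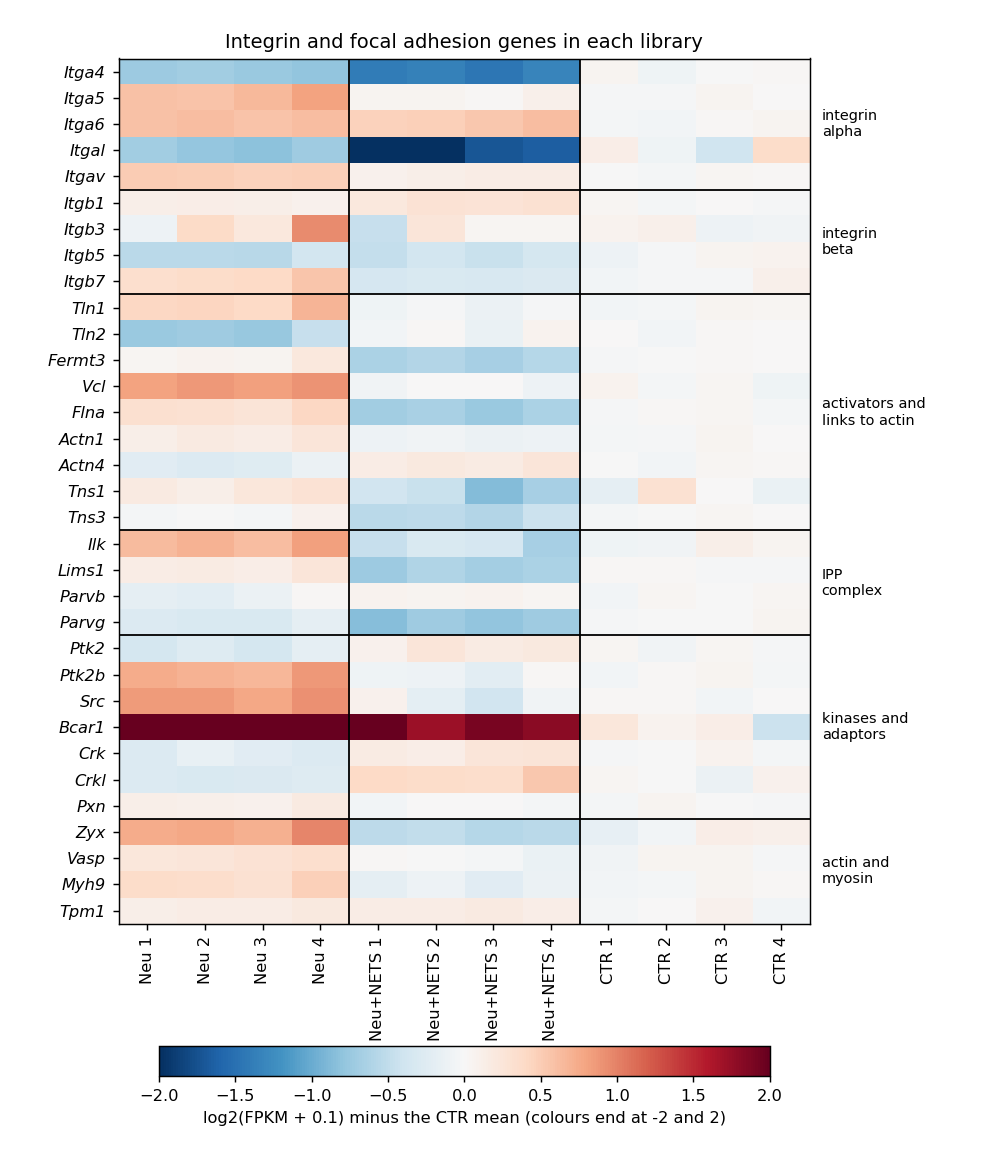
Level of each of the 33 tested members in the 12 libraries (columns, grouped as Neu, Neu+NETS and CTR), as log2(FPKM + 0.1) minus the mean of the CTR libraries, with colours ending at -2 and 2 (IPP, the integrin-linked kinase complex). Within a group the 4 libraries look alike for most members, Bcar1 is highest in Neu, and Itga4 and Itgal are below CTR in both neutrophil groups.

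**Figure D2:**
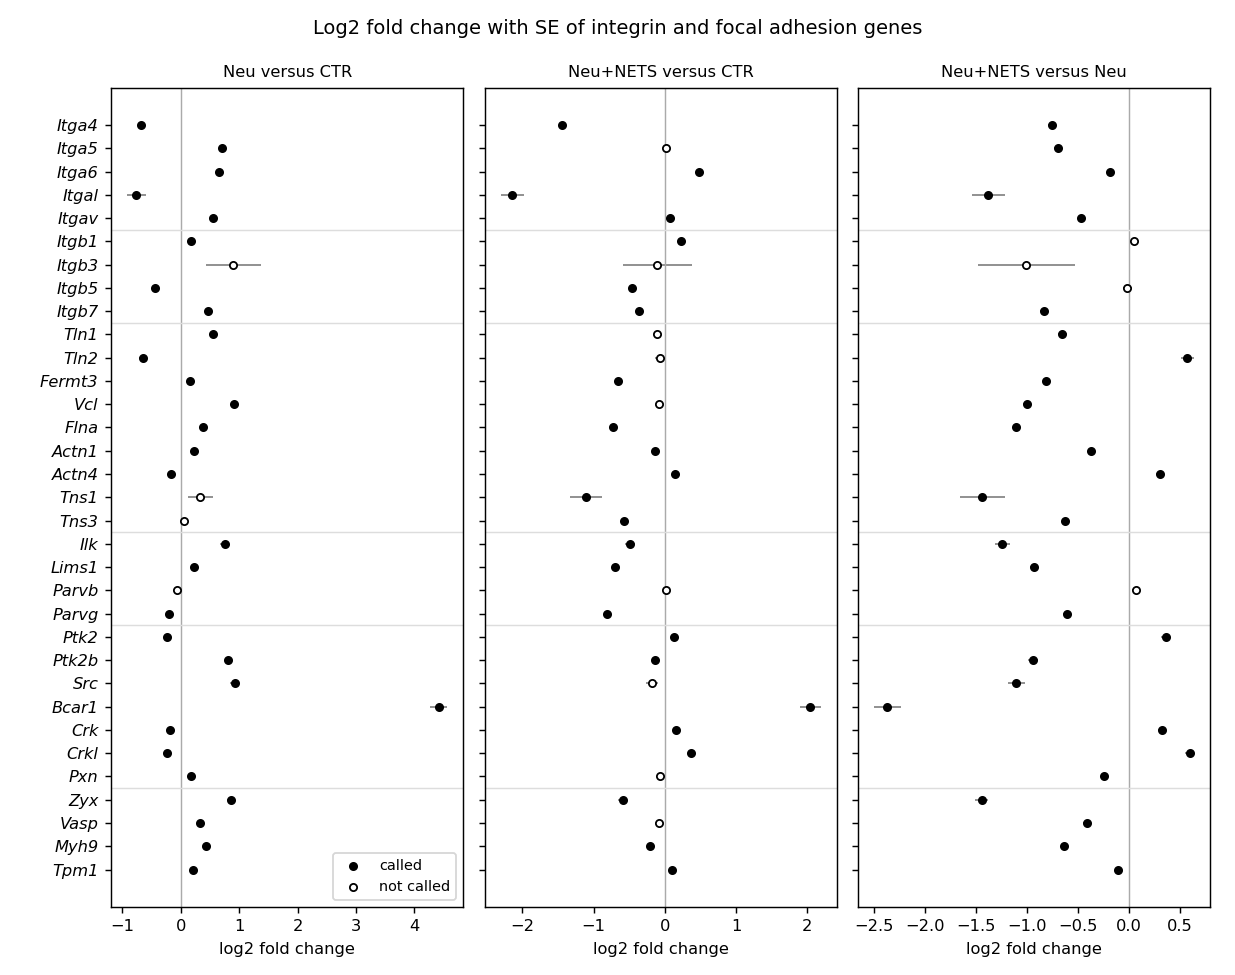
Log2 fold changes of the 33 tested members with their SE, from edgeR's quasi-likelihood test, in Neu against CTR, Neu+NETS against CTR and Neu+NETS against Neu, ordered by role. Most points of Neu against CTR lie right of 0 and most points of Neu+NETS against Neu lie left of 0, with Bcar1 at 4.42 and -2.37.

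The counts called within each role, here and below, cover only 4 to 9 tested genes. Over all tested genes, 54.1% were called in Neu against CTR, 45.3% in Neu+NETS against CTR and 62.5% in Neu+NETS against Neu. Among the alpha subunits, which set the choice of ligand, 3 of 5 were called higher in Neu than in CTR (Itga5, Itga6 and Itgav) and 2 lower (Itga4 and Itgal), and all 5 were called lower in Neu+NETS than in Neu. Itga4, the alpha4 chain that binds VCAM-1 and fibronectin, had 8.53, 8.70, 8.45 and 8.15 FPKM in Neu, 5.32, 5.47, 5.14 and 5.59 in Neu+NETS and 14.7, 13.3, 14.1 and 14.4 in CTR. No libraries of different groups overlapped, with Neu+NETS lowest and CTR highest. The log2 fold change was -0.68 ± 0.0355 (SE; 1.61-fold, adjusted p = 4.4e-11) in Neu against CTR, -1.44 ± 0.0363 (2.72-fold, adjusted p = 9.8e-15) in Neu+NETS against CTR and -0.76 ± 0.0360 (1.69-fold, adjusted p = 7.3e-12) in Neu+NETS against Neu. Itgal, the alpha chain of LFA-1, which binds ICAM-1, was much less abundant, with 1.47, 1.38, 1.34 and 1.45 FPKM in Neu, 0.450, 0.487, 0.675 and 0.712 in Neu+NETS and 2.68, 2.29, 1.82 and 3.16 in CTR. The order was the same as for Itga4 and again no groups overlapped, although the CTR libraries were widely spread. Itgal fell 1.69-fold in Neu (log2 -0.76 ± 0.157, adjusted p = 0.00053) and 4.41-fold in Neu+NETS (-2.14 ± 0.166, adjusted p = 1.5e-08) relative to CTR, and 2.60-fold in Neu+NETS relative to Neu (adjusted p = 1.1e-06).

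Itga5, the alpha chain of the classic fibronectin receptor, had 40.4, 40.0, 42.2 and 46.8 FPKM in Neu, 27.9, 27.8, 27.5 and 28.9 in Neu+NETS and 26.5, 26.4, 27.8 and 26.9 in CTR. Neu stood above both other groups, which overlapped each other. The log2 fold change was 0.71 ± 0.0383 in Neu against CTR (adjusted p = 7.2e-11), 0.01 ± 0.0383 in Neu+NETS against CTR (adjusted p = 0.856) and -0.70 ± 0.0382 in Neu+NETS against Neu (adjusted p = 4.6e-11). Itgav, the alpha chain that binds RGD ligands such as vitronectin and osteopontin, had 15.4 to 15.9 FPKM in Neu, 11.8 to 12.3 in Neu+NETS and 10.8 to 11.4 in CTR. It rose 1.46-fold in Neu against CTR (adjusted p = 2.3e-11) and 1.06-fold in Neu+NETS against CTR (adjusted p = 0.0266), a small difference whose adjusted p was 0.0553 to 0.0767 without Neu+NETS replicate 3, Neu+NETS replicate 4 or CTR replicate 2. Itga6, a laminin receptor chain, rose in both neutrophil groups, by 1.58-fold in Neu (adjusted p = 7.8e-11) and 1.39-fold in Neu+NETS (adjusted p = 1e-08) relative to CTR. Its libraries lay at 11 to 11.4 FPKM in Neu, 10.1 to 11.3 in Neu+NETS and 7.12 to 7.69 in CTR, so only the first 2 overlapped.

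Itgb1, the beta chain shared by Itga4, Itga5, Itga6 and Itgav, was the most abundant integrin member, with 118, 119, 118 and 115 FPKM in Neu, 126, 132, 131 and 134 in Neu+NETS and 112, 106, 109 and 107 in CTR. It rose 1.13-fold in Neu (log2 0.17 ± 0.0252, adjusted p = 1.8e-05) and 1.16-fold in Neu+NETS (0.22 ± 0.0252, adjusted p = 1.7e-06) relative to CTR. Between Neu+NETS and Neu the FPKM ranges did not overlap, but the fit on counts gave 0.05 ± 0.0252 with an adjusted p of 0.105. Several alternatives did call it. The adjusted p was 0.0222 with DESeq2, 0.041 with median-of-ratios scaling and 0.0153 with only those groups in the fit. With limma on log2(FPKM + 1) the difference was 0.15 (adjusted p = 7.6e-05). Itgb7, the partner of Itga4 and of the alphaE chain, had 62.8, 63.9, 65.3 and 72.7 FPKM in Neu, 39.4, 40.1, 39.6 and 40.8 in Neu+NETS and 48.0, 48.7, 48.8 and 53.2 in CTR. Every Neu library was above every CTR library and every Neu+NETS library was below, with log2 fold changes of 0.47 ± 0.0393 in Neu (adjusted p = 2e-08) and -0.36 in Neu+NETS (adjusted p = 9.5e-07) relative to CTR, and -0.83 in Neu+NETS relative to Neu (adjusted p = 7.5e-12). Itgb5, a partner of alphav, fell in both neutrophil groups relative to CTR, by 1.36-fold in Neu (adjusted p = 1.5e-07) and 1.38-fold in Neu+NETS (adjusted p = 1.8e-07). Its difference between Neu+NETS and Neu was -0.02 on the log2 scale (adjusted p = 0.769), a value that changed sign under 6 alternatives. Itgb3, the beta chain of the platelet fibrinogen receptor, was near the limit of detection, with 0.0527, 0.114, 0.0904 and 0.216 FPKM in Neu, 0.0196, 0.0943, 0.0688 and 0.0681 in Neu+NETS and 0.0717, 0.0766, 0.0526 and 0.0564 in CTR. Its libraries overlapped and no comparison was called, although in Neu+NETS against Neu (log2 -1.01, adjusted p = 0.0766) the adjusted p was 0.0335 without Neu replicate 1 and 0.0489 without Neu+NETS replicate 2.

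The make-up of the integrin pool, from FPKM with subunits outside the member list added, moved with these changes. The 16 alpha subunits with a row summed to 176 ± 6.30 FPKM in Neu, 94.9 ± 3.97 in Neu+NETS and 131 ± 3.33 in CTR (mean ± SD, n = 4 each). The largest share belonged to Itgam, the alpha chain of complement receptor 3, with 49.5% in Neu, 33.3% in Neu+NETS and 46.9% in CTR. Itga4 made up 4.80% of that sum in Neu, 5.67% in Neu+NETS and 10.8% in CTR, while Itga5 made up 24.0%, 29.6% and 20.5% in the same order of groups. Itga6 made up 6.36% in Neu, 11.2% in Neu+NETS and 5.61% in CTR. The 6 beta subunits summed to 274 ± 6.31 FPKM in Neu, 235 ± 6.91 in Neu+NETS and 241 ± 3.25 in CTR, of which Itgb1 was 42.9%, 55.6% and 45.0% and Itgb7 24.1%, 17.0% and 20.6%. These shares are a description, with no test.

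**Figure D3:**
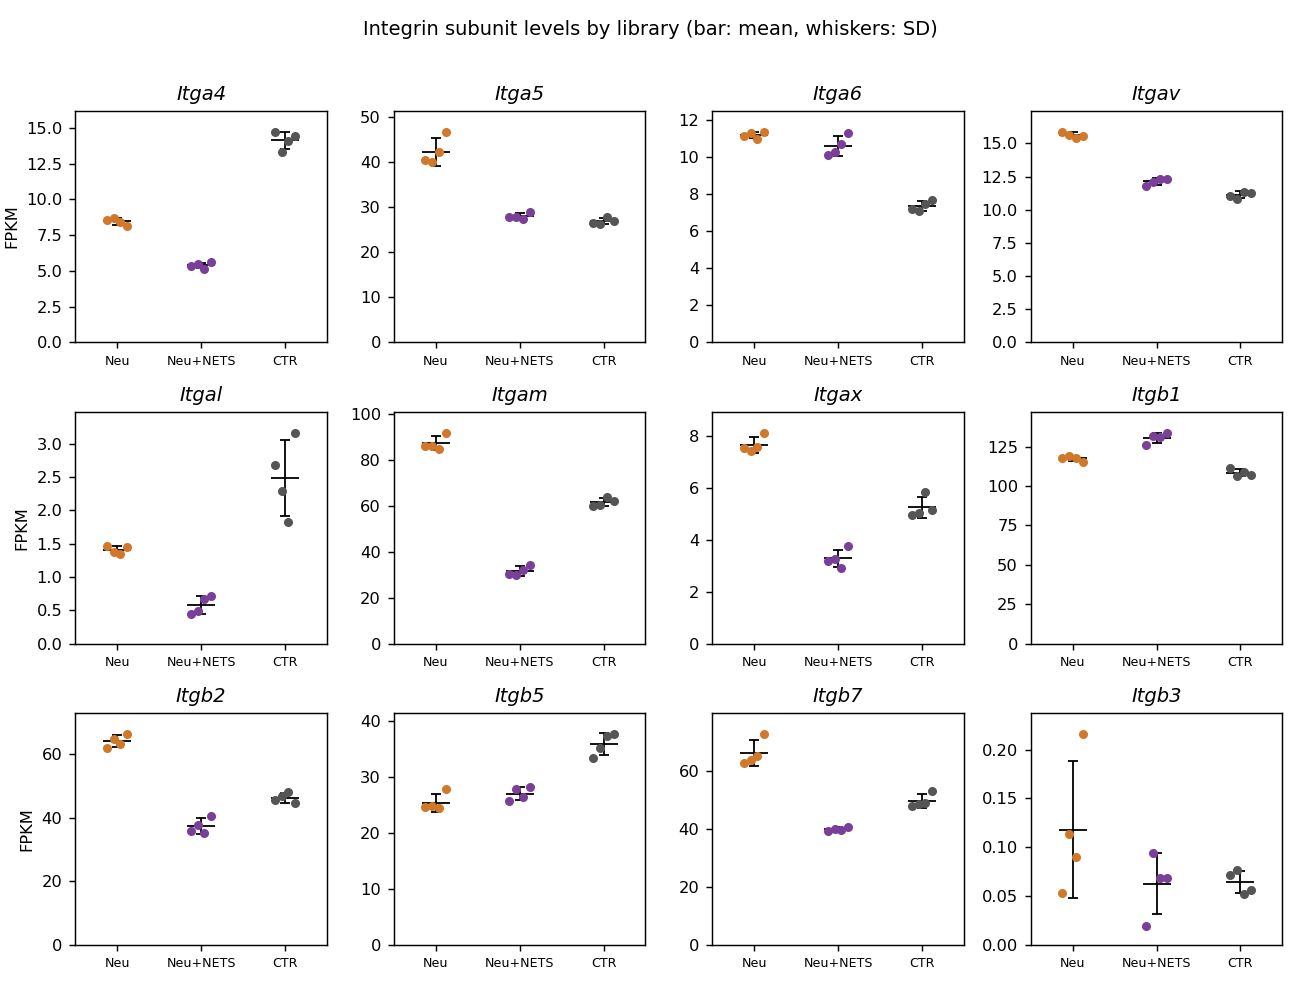
FPKM of integrin subunits in each library (points), with the mean (bar) and SD (whiskers) of Neu, Neu+NETS and CTR, n = 4 each, on axes that start at 0. Itga4 and Itgal are lowest in Neu+NETS and highest in CTR, Itga5 and Itgb7 are highest in Neu, and Itgb1 lies between 106 and 134 FPKM in all 12 libraries.

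Among the adhesion kinases and adaptors, 4 of 7 tested members were called higher in Neu than in CTR and 3 lower, with 4 higher and 1 lower in Neu+NETS against CTR and 3 higher and 4 lower in Neu+NETS against Neu. Bcar1, which encodes p130Cas, the docking protein that Src and focal adhesion kinase phosphorylate and that binds Crk, changed most of all members. Its row spans chr8:112437106-112470441 on the minus strand of GRCm39. It had 7.0, 7.19, 6.63 and 8.75 FPKM in Neu (2122 to 2743 counts), 1.69, 1.37, 1.58 and 1.47 in Neu+NETS (404 to 533 counts) and 0.427, 0.370, 0.394 and 0.233 in CTR (61 to 118 counts). The groups were far apart, with Neu highest and CTR lowest. Bcar1 rose 21.4-fold in Neu (log2 4.42 ± 0.15, adjusted p = 2.3e-13) and 4.12-fold in Neu+NETS (2.04 ± 0.145, adjusted p = 5.1e-09) relative to CTR, and was 5.18-fold lower in Neu+NETS than in Neu (adjusted p = 5.2e-11).

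To show where the members with the largest changes begin, the sequence before the start was taken from RefSeq promoter windows of GRCm38.p6, a different build from that of the table. Each window runs from 250 bases before a start to 50 bases after it, and 27 members had 32 windows in all. The Bcar1 stretch is chr8:111743850-111744099 on the minus strand, the 250 bases before 1 of its 2 annotated starts, printed 5′ to 3′ with ACGTG, the core of the hypoxia response element and of many E-boxes, in capitals.
Bcar1: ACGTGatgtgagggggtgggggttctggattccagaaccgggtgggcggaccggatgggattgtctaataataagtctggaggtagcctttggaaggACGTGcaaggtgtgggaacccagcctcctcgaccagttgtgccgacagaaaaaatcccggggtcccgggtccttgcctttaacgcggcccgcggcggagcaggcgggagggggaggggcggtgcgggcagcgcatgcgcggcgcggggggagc
ACGTG was searched on both strands. At least 1 match was found in 25% of the members' windows and in 19.6% of all 32851 windows, and 7 members held it. A match is a description of letters, not a binding site.

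Src, the kinase that phosphorylates p130Cas, had 6.47, 6.47, 6.12 and 6.71 FPKM in Neu, 3.75, 3.06, 2.67 and 3.38 in Neu+NETS and 3.60, 3.58, 3.40 and 3.55 in CTR. It rose 1.89-fold in Neu against CTR (log2 0.92 ± 0.0835, adjusted p = 5.6e-08) and was 2.16-fold lower in Neu+NETS than in Neu (adjusted p = 3.5e-09). Neu+NETS and CTR overlapped, with a log2 fold change of -0.19 ± 0.0841 (adjusted p = 0.0820) that was -0.27 (adjusted p = 0.00957) without Neu+NETS replicate 1. Ptk2b, the focal adhesion kinase relative Pyk2, had 33.5, 32.2, 31.6 and 36.5 FPKM in Neu, 18.7, 18.6, 17.2 and 20.3 in Neu+NETS and 19.1, 20.3, 20.7 and 19.4 in CTR. Neu stood apart, 1.75-fold above CTR (log2 0.80 ± 0.0461, adjusted p = 1.6e-10), and Neu+NETS was 1.92-fold below Neu (adjusted p = 1.1e-11). The call in Neu+NETS against CTR (-0.14 ± 0.0461, adjusted p = 0.0211) rested on overlapping ranges and was lost, with adjusted p of 0.054 to 0.0915, without Neu+NETS replicate 2, Neu+NETS replicate 3, CTR replicate 2 or CTR replicate 3.

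Ptk2, focal adhesion kinase itself, went the other way, with 4.86 to 5.50 FPKM in Neu, 6.61 to 7.41 in Neu+NETS and 5.95 to 6.41 in CTR. It was 1.17-fold lower in Neu than in CTR (adjusted p = 0.00017) and 1.28-fold higher in Neu+NETS than in Neu (adjusted p = 9e-07). Its 1.09-fold rise in Neu+NETS against CTR (adjusted p = 0.0181) had an adjusted p of 0.0637 without Neu+NETS replicate 2 and 0.0576 without CTR replicate 2. The adaptors Crk and Crkl, which dock on phosphorylated p130Cas and paxillin, followed the same order. Crkl had 9.25, 9.03, 9.15 and 9.40 FPKM in Neu, 14.8, 14.5, 14.3 and 16.3 in Neu+NETS and 11.6, 11.2, 10.3 and 11.9 in CTR, with log2 fold changes of -0.23 in Neu (adjusted p = 0.00039) and 0.36 in Neu+NETS (adjusted p = 5.2e-06) relative to CTR. Crk was 1.13-fold lower in Neu (adjusted p = 0.00118) and 1.11-fold higher in Neu+NETS (adjusted p = 0.0051) than in CTR. Paxillin (Pxn), the scaffold at the cytoplasmic face of the adhesion, lay at 16 to 17.2 FPKM in Neu, 14.5 to 15.2 in Neu+NETS and 14.7 to 15.6 in CTR and rose 1.13-fold in Neu against CTR (adjusted p = 6.8e-05).

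**Figure D4:**
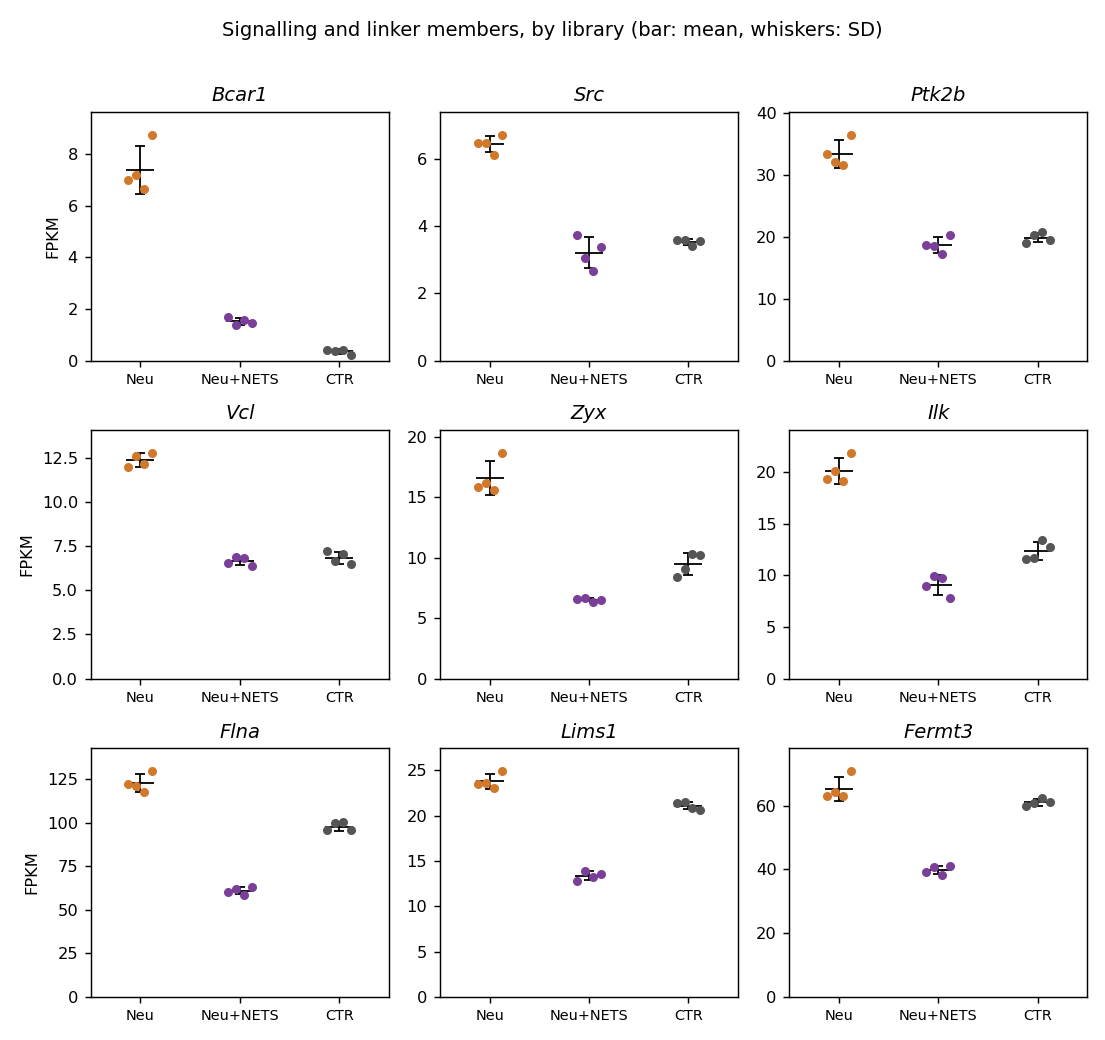
FPKM of 9 kinase, adaptor and linker members in each library (points), with the mean (bar) and SD (whiskers) of Neu, Neu+NETS and CTR, n = 4 each, on axes that start at 0. Src, Ptk2b and Vcl are high in Neu and overlap between Neu+NETS and CTR, while Zyx, Ilk, Flna, Lims1 and Fermt3 are lowest in Neu+NETS.

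Of the 9 tested activators and actin links, 5 were called higher in Neu than in CTR and 2 lower, against 1 higher and 5 lower in Neu+NETS than in CTR, and 2 higher and 7 lower in Neu+NETS than in Neu. Talin-1 (Tln1), which binds and opens the beta tail, had 72.9, 73.4, 72.0 and 87.4 FPKM in Neu, 51.2, 53.7, 50.4 and 53.7 in Neu+NETS and 52.3, 53.1, 56.6 and 55.7 in CTR. Neu was above both other groups, 1.46-fold above CTR (log2 0.54, adjusted p = 1.8e-08), and Neu+NETS was 1.57-fold below Neu (adjusted p = 1.1e-09). In Neu+NETS against CTR, Tln1 gave -0.11 (adjusted p = 0.0612), with an adjusted p of 0.00263 without Neu replicate 4, which enters through the shared estimate of spread. Its relative talin-2 (Tln2) went the opposite way in Neu, with 1.11, 1.14, 1.1 and 1.38 FPKM there, 1.84, 1.97, 1.75 and 2.02 in Neu+NETS and 1.94, 1.86, 1.96 and 1.94 in CTR. Tln2 fell 1.57-fold in Neu against CTR (adjusted p = 2.4e-07) and was 1.49-fold higher in Neu+NETS than in Neu (adjusted p = 7.6e-07).

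Kindlin-3 (Fermt3), the kindlin of blood cells, had 63.0, 64.2, 63.2 and 70.9 FPKM in Neu, 39.3, 40.9, 38.4 and 41.1 in Neu+NETS and 59.8, 60.9, 62.4 and 61.2 in CTR. It fell 1.58-fold in Neu+NETS against CTR (log2 -0.66, adjusted p = 3.4e-11) and 1.76-fold against Neu (adjusted p = 6e-13), and it was called 1.11-fold higher in Neu than in CTR (adjusted p = 0.00054), a call lost with limma on log2(FPKM + 1) over all genes (adjusted p = 0.0806). Kindlin-2 (Fermt2), the form of most adherent tissues, averaged 0.00928 FPKM in Neu, 0.0149 in Neu+NETS and 0.00178 in CTR and was listed at 0 in several libraries. Filamin A (Flna), which cross-links actin and binds beta tails, had 122, 121, 117 and 129.7 FPKM in Neu, 60.4, 62.1, 58.5 and 62.8 in Neu+NETS and 95.8, 99.7, 100.1 and 95.5 in CTR. The groups did not overlap, with Neu highest and Neu+NETS lowest. Flna rose 1.3-fold in Neu (log2 0.38 ± 0.0277, adjusted p = 3.3e-09) and fell 1.66-fold in Neu+NETS (-0.73 ± 0.0278, adjusted p = 1.7e-12) relative to CTR, and fell 2.16-fold in Neu+NETS relative to Neu (adjusted p = 2.2e-15).

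Vinculin (Vcl), which reinforces the link between talin and actin under load, had 12.0, 12.6, 12.1 and 12.8 FPKM in Neu, 6.53, 6.86, 6.84 and 6.39 in Neu+NETS and 7.22, 6.66, 7.03 and 6.46 in CTR. It rose 1.88-fold in Neu against CTR (log2 0.91 ± 0.0408, adjusted p = 7.1e-12) and fell by 1.00 ± 0.0408 on the log2 scale in Neu+NETS against Neu (adjusted p = 1.1e-12). Neu+NETS and CTR overlapped (log2 -0.09, adjusted p = 0.0929, and -0.12 with an adjusted p of 0.0297 without CTR replicate 4). The strand setting of the counting is not given, and the Vcl row overlaps the opposite-strand gene Ap3m1 (mean 19.9 FPKM), so shared reads cannot be told apart. The same holds for Ilk with Rrp8 (11.1 FPKM) and Taf10 (23.1 FPKM), for Fermt3 with Trpt1 (1.74 FPKM) and for Vasp with 1700058P15Rik (1.87 FPKM).

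The promoter window of Vcl is shown because it was 1 of 2 among the members, with that of Fermt2, that held a CArG box, the element bound by serum response factor. The 250 bases before its start are chr14:20929148-20929397 on the plus strand of GRCm38.p6, from RefSeq, with the CArG box and ACGTG in capitals.
Vcl: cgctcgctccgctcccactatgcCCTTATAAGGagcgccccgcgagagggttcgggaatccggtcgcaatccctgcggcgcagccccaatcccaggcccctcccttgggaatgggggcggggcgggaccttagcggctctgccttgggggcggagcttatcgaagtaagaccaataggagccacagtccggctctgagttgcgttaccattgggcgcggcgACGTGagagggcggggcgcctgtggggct
A CArG box stood in 6.25% of the members' windows and in 1.63% of all windows, searched on both strands. The AP-1 motif TGANTCA stood in Zyx and Actn4 among the members, 6.25% of their windows against 7.81% of all windows. The PU.1 core GAGGAA was in 28.1% of the members' windows and 28.3% of all windows, and the Sp1 box GGGCGG in 71.9% and 35.7%. For every motif searched, the windows of all genes were not matched to those of the members for expression or GC content. Enrichment was not tested.

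The alpha-actinins, which cross-link actin filaments, moved in opposite directions. Actn1 rose in Neu and fell in Neu+NETS relative to CTR, with 80.4 to 87.7 FPKM in Neu, 68.8 to 71.0 in Neu+NETS and 72.1 to 76.9 in CTR (1.17-fold, adjusted p = 1.1e-06, and 1.1-fold, adjusted p = 0.00029). Actn4 had 45.5 to 51.1 FPKM in Neu, 61.2 to 65.3 in Neu+NETS and 53.2 to 56.6 in CTR, 1.12-fold lower in Neu (adjusted p = 0.00026) and 1.1-fold higher in Neu+NETS (adjusted p = 0.00118) than in CTR. Of the tensins, which bind beta tails and actin, Tns3 had 22.5 to 24.4 FPKM in Neu, 15.4 to 17.1 in Neu+NETS and 22.5 to 23.8 in CTR. It fell 1.49-fold in Neu+NETS against CTR (adjusted p = 2e-10), and its difference in Neu against CTR was 0.06 (adjusted p = 0.152), or 0.07 (adjusted p = 0.0478) with counts divided by 4. Tns1 was below 1 FPKM in every library and fell 2.15-fold in Neu+NETS against CTR (log2 -1.11 ± 0.222, adjusted p = 0.00055).

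The integrin-linked kinase complex joins the pseudokinase Ilk, the adaptor Pinch-1 (Lims1) and a parvin, and ties beta tails to actin. Of its 4 tested members, 2 rose and 1 fell in Neu against CTR, and 3 were called lower in Neu+NETS than in CTR and than in Neu. Ilk had 19.3, 20.1, 19.1 and 21.9 FPKM in Neu, 8.93, 9.95, 9.76 and 7.80 in Neu+NETS and 11.6, 11.7, 13.5 and 12.8 in CTR. No groups overlapped, and Ilk rose 1.68-fold in Neu (log2 0.75 ± 0.0724, adjusted p = 1.2e-07) and fell 1.40-fold in Neu+NETS (-0.49 ± 0.0734, adjusted p = 3.2e-05) relative to CTR. In Neu+NETS it was 2.37-fold lower than in Neu (adjusted p = 1.3e-10). Lims1 had 23.5, 23.6, 23.1 and 24.9 FPKM in Neu, 12.8, 13.9, 13.2 and 13.6 in Neu+NETS and 21.3, 21.5, 20.9 and 20.7 in CTR. It was likewise highest in Neu and lowest in Neu+NETS, 1.17-fold higher in Neu (adjusted p = 8.9e-06) and 1.63-fold lower in Neu+NETS (adjusted p = 1.6e-11) than in CTR.

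Gamma-parvin (Parvg), the parvin of blood cells, had 75.0, 73.7, 73.6 and 80.3 FPKM in Neu, 50.2, 55.2, 52.2 and 55.5 in Neu+NETS and 88.8, 90.6, 89.9 and 93.9 in CTR. Every Neu and every Neu+NETS library was below every CTR library. The log2 fold change was -0.21 ± 0.0325 in Neu (adjusted p = 3.4e-05) and -0.82 ± 0.0328 in Neu+NETS (adjusted p = 3.3e-12) relative to CTR. Beta-parvin (Parvb) lay at 29.2 to 34.1 FPKM in Neu, 34.6 to 35.4 in Neu+NETS and 32.3 to 34.5 in CTR and was not called in any comparison (adjusted p 0.114 to 0.873), though without Neu replicate 4 the adjusted p was 0.0164 in Neu against CTR and 0.00859 in Neu+NETS against Neu. Limma on log2(FPKM + 1) also called Parvb, at -0.12 in Neu against CTR (adjusted p = 0.023) and 0.18 in Neu+NETS against Neu (adjusted p = 0.00194). In Neu+NETS against Neu it was called with DESeq2 (adjusted p = 0.0463) and with only those groups in the fit (adjusted p = 0.0335) as well.

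All 4 tested regulators of actin and contraction were called higher in Neu than in CTR and lower in Neu+NETS than in Neu, except that Tpm1 was not called in the second comparison with limma on FPKM. Zyxin (Zyx), which gathers at adhesions and stress fibres under tension, had 15.9, 16.2, 15.6 and 18.7 FPKM in Neu, 6.56, 6.71, 6.35 and 6.49 in Neu+NETS and 8.40, 9.07, 10.3 and 10.2 in CTR. The groups did not overlap, with Neu highest and Neu+NETS lowest. Zyx rose 1.81-fold in Neu (log2 0.86 ± 0.0614, adjusted p = 2.8e-09) and fell 1.5-fold in Neu+NETS (-0.59 ± 0.0624, adjusted p = 6.6e-07) relative to CTR, and fell 2.73-fold in Neu+NETS relative to Neu (adjusted p = 2.2e-12). Short stretches of the RefSeq windows of Ilk and Zyx, both with groups that did not overlap, are printed 5′ to 3′ from chr7:105736428-105736457 and chr6:42349696-42349725, plus strand of GRCm38.p6. Capitals mark the CACGTG that holds ACGTG on both strands in Ilk and the AP-1 motif in Zyx.
Ilk: tacgctctggccCACGTGcagcgcgcgtca
Zyx: agtgcggacagTGAGTCAgttctccagcac

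Vasp, which zyxin recruits to lengthen actin filaments, had 69.6, 69.9, 72.3 and 74.6 FPKM in Neu, 60.6, 59.3, 57.5 and 54.0 in Neu+NETS and 56.4, 61.5, 61.4 and 58.1 in CTR. Only Neu stood apart, 1.25-fold above CTR (log2 0.33 ± 0.0407, adjusted p = 2.7e-06), while Neu+NETS against CTR gave -0.09 (adjusted p = 0.0990, and 0.0435 without Neu+NETS replicate 1). Myh9, the heavy chain of non-muscle myosin IIA, had 62.9 to 71.0 FPKM in Neu, 43.6 to 47.6 in Neu+NETS and 49.1 to 53.1 in CTR, 1.35-fold higher in Neu (adjusted p = 5.7e-09) and 1.15-fold lower in Neu+NETS (adjusted p = 7e-05) than in CTR. Tropomyosin 1 (Tpm1), which coats actin filaments, rose 1.16-fold in Neu (adjusted p = 6e-05) and 1.08-fold in Neu+NETS (adjusted p = 0.0198) relative to CTR. The smaller of these had an adjusted p of 0.0567 without Neu+NETS replicate 3 and 0.0612 without CTR replicate 4. In Neu+NETS against Neu, Tpm1 averaged 14.7 FPKM in both groups with overlapping ranges, and its call in edgeR (log2 -0.11, adjusted p = 0.0143) was lost with limma on log2(FPKM + 1) (adjusted p = 0.989).

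Ratios of FPKM between related members were taken after their values had been seen and have no test. The ratio of Tln1 to Tln2 was 64.6 ± 1.15 in Neu, 27.6 ± 0.978 in Neu+NETS and 28.2 ± 0.905 in CTR (mean ± SD, n = 4 each), so Neu stood apart and the other groups overlapped. For Ptk2b over Ptk2 it was 6.56 ± 0.277 in Neu, 2.66 ± 0.200 in Neu+NETS and 3.2 ± 0.172 in CTR, and for Actn1 over Actn4 it was 1.77 ± 0.0692, 1.11 ± 0.0311 and 1.35 ± 0.0271 in the same order of groups. In both, Neu was highest, Neu+NETS lowest and no groups overlapped. Parvg over Parvb was 2.44 ± 0.0969 in Neu, 1.52 ± 0.0906 in Neu+NETS and 2.70 ± 0.0508 in CTR, again without overlap. Crk over Crkl was 1.99 ± 0.117 in Neu, 1.65 ± 0.0892 in Neu+NETS and 1.92 ± 0.180 in CTR, where both neutrophil groups overlapped CTR.

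**Figure D5:**
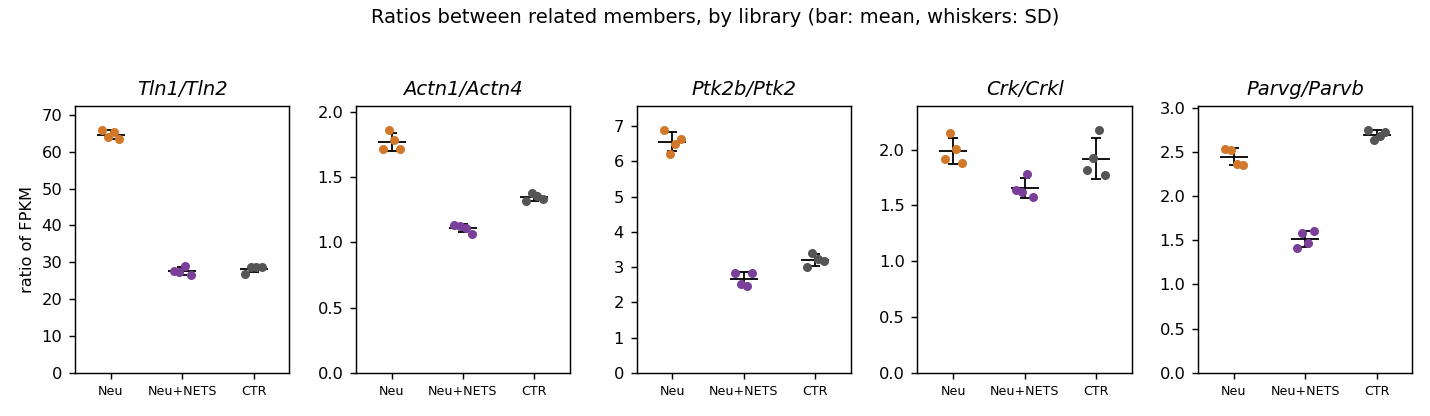
Ratio of FPKM between 5 pairs of related members in each library (points), with the mean (bar) and SD (whiskers) of Neu, Neu+NETS and CTR, n = 4 each, on axes that start at 0. The ratio of Tln1 to Tln2 is 64.6 in Neu against 28.2 in CTR, and those of Ptk2b to Ptk2, Actn1 to Actn4 and Parvg to Parvb differ between all 3 groups without overlap.

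Genes of the same pathway outside the member list were read from lists, beside the shares of all tested genes given above: 26.1% higher and 27.9% lower in Neu against CTR, 21.6% and 23.7% in Neu+NETS against CTR, and 29.4% and 33.1% in Neu+NETS against Neu. Of 9 tested integrin subunits, 3 (33.3%) were called higher in Neu than in CTR and none lower, and 2 (22.2%) were called higher and 5 (55.6%) lower in Neu+NETS than in CTR and likewise than in Neu. Itgam had 86.3, 86.1, 84.9 and 91.8 FPKM in Neu, 30.3, 29.7, 32.1 and 34.4 in Neu+NETS and 59.9, 60.5, 63.8 and 62.3 in CTR. It rose 1.47-fold in Neu (adjusted p = 1.3e-09) and fell 2.02-fold in Neu+NETS (adjusted p = 1.6e-12) relative to CTR. Itgb2, its beta chain and that of Itgal, averaged 64.2 FPKM in Neu, 37.4 in Neu+NETS and 46.3 in CTR. Itgax, the alpha chain of complement receptor 4, averaged 7.67, 3.28 and 5.25 FPKM in the same order of groups. Like Csf1r, both alpha chains also serve as markers of myeloid cells, and the part of the fall in myeloid markers in these integrin values was not tested.

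Of 15 tested integrin ligands, 8 (53.3%) rose and 1 (6.67%) fell in Neu against CTR, with 2 (13.3%) higher and 8 (53.3%) lower in Neu+NETS than in CTR, and 0 higher and 10 (66.7%) lower in Neu+NETS than in Neu. Spp1, which encodes osteopontin, averaged 1909 FPKM in Neu, 1125 in Neu+NETS and 1325 in CTR, and Icam1, the ligand of LFA-1, 16.5, 10.9 and 11.9 in the same order. Vwf averaged 3.08 FPKM in Neu, 0.395 in Neu+NETS and 1.35 in CTR, 2.36-fold higher in Neu (adjusted p = 3.5e-09) and 3.53-fold lower in Neu+NETS (adjusted p = 1.3e-10) than in CTR. Of 36 tested adhesion adaptors and regulators, 11 (30.6%) rose and 8 (22.2%) fell in Neu against CTR, 52.8% called and so near the 54.1% of all genes. In Neu+NETS, 7 (19.4%) were higher and 23 (63.9%) lower than in CTR, and 5 (13.9%) higher and 26 (72.2%) lower than in Neu. A relative of Bcar1, Nedd9, averaged 5.60 ± 0.144 FPKM in Neu, 2.42 ± 0.169 in Neu+NETS and 1.87 ± 0.0413 in CTR, 3.10-fold higher in Neu (adjusted p = 1e-12) and 1.25-fold higher in Neu+NETS (adjusted p = 0.00041) than in CTR. Pinch-2 (Lims2), the relative of Lims1, averaged 19.6 ± 1.27 FPKM in Neu, 5.61 ± 0.247 in Neu+NETS and 4.49 ± 0.498 in CTR, a 4.54-fold rise in Neu against CTR (adjusted p = 1.9e-13).

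Of 37 tested actin cytoskeleton genes, 23 (62.2%) rose and 7 (18.9%) fell in Neu against CTR, with 3 (8.11%) higher and 24 (64.9%) lower in Neu+NETS than in CTR, and 5 (13.5%) higher and 29 (78.4%) lower in Neu+NETS than in Neu. Gelsolin (Gsn), which severs actin filaments, averaged 511 FPKM in Neu, 126 in Neu+NETS and 156 in CTR, 3.40-fold higher in Neu (adjusted p = 1.4e-16) and 1.28-fold lower in Neu+NETS (adjusted p = 7.5e-08) than in CTR. The leukocyte plastin Lcp1, which bundles actin, averaged 189.6, 85.3 and 122 FPKM in the same order of groups, and the actin-binding caldesmon gene Cald1 9.86, 4.54 and 4.89. With Cav1 not analysed here, 3 caveola genes were tested, too few for shares. Of these, 2 rose and 1 fell in Neu against CTR. In Neu+NETS, 1 rose and 0 fell against CTR, and 1 rose and 1 fell against Neu. Ehd2, which steadies caveolae at the membrane, averaged 7.08 FPKM in Neu, 4.61 in Neu+NETS and 2.62 in CTR. Cav2 averaged 8.68, 11.4 and 10.6 FPKM in the same order of groups. Its log2 fold change was -0.24 in Neu against CTR (adjusted p = 0.0033) and 0.29 in Neu+NETS against Neu (adjusted p = 0.00048). Across the 148 tested genes that the deposited annotation places in focal adhesions, 24 of them members, 77 (52%) rose and 28 (18.9%) fell in Neu against CTR, with 29 (19.6%) higher and 67 (45.3%) lower in Neu+NETS than in CTR, and 28 (18.9%) higher and 97 (65.5%) lower in Neu+NETS than in Neu.

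Neu replicate 4 had the highest FPKM of its group in 28 of the 33 tested members (84.8%), against 47.5% of the 11227 tested genes with a mean of at least 1 FPKM. Without it, 20 members rose and 10 fell in Neu against CTR, with 9 higher and 16 lower in Neu+NETS than in CTR, and 6 higher and 24 lower in Neu+NETS than in Neu. The median log2 fold change over the members was then 0.22 in Neu against CTR and -0.60 in Neu+NETS against Neu.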

How the data were processed

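Polyadenylated RNA was sequenced in 12 libraries, 4 per group, and the labels gave group and replicate number. HISAT2 2.0.4, StringTie 1.3.4d, edgeR and GRCm39 appear in the submitters' processing notes without their role or order. Strand setting, filters and annotation release are not given in the sources. Estimated counts per gene were deposited by the authors in whole numbers, unscaled, with column totals that differ. They were used as deposited, and since 33.0% of values from 2 to 41 are multiples of 4, where an even spread gives 25%, 1 fragment appears to stand for about 4 units. Per the file headers, the authors also deposited FPKM. No per-sample column was left unmatched.

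filterByExpr kept 16387 genes, TMM scaled the libraries (factors 0.970 to 1.03), and all 12 entered 1 quasi-likelihood fit with a mean per group (edgeR 4.0.16, R 4.3.3). The common coefficient of variation between libraries of a group, which edgeR calls biological, was 12.5%. All tests were two-sided with Benjamini-Hochberg adjustment over the genes tested, and dividing a log2 fold change by the square root of its F gave its SE. Calls needed an adjusted p under 0.05. Both neutrophil groups are set against the same CTR libraries, so those comparisons are not independent. Fold changes of FPKM lay -0.050, 0.046 and 0.098 (log2, median over 11585 genes) from those of the fit in Neu against CTR, Neu+NETS against CTR and Neu+NETS against Neu.

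The members, the gene lists and the tests were chosen with earlier results of these data known. Members were given in full when called with a log2 fold change of at least 1 in size at a mean of at least 1 FPKM in the higher group (7 genes), or when the most abundant of their role (6 genes, 12 genes in all). The others are given more briefly. For each non-member list and comparison, up to 4 genes were named by the size of their change, and the text gives only some of these. A gene that this rule names is not reported here. Alternatives were DESeq2 1.42.0, median-of-ratios scaling, no filter, counts divided by 4, limma 3.58.1 on log2(FPKM + 1) and log2(FPKM + 0.1), only the compared groups, a replicate block and leaving out each library. Promoter windows came from RefSeq (GRCm38.p6).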

Additional observations from a re-analysis of the deposited data

Results flagged for a closer look

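In 6 of 102 sets of 4 libraries (34 members in 3 groups), 1 library stood far from the other 3 by Dixon's criterion, where chance gives about 1 in 20. Neu replicate 4 was that library for Itgb5 (27.8 FPKM, others 24.4 to 24.8), Tln1 (87.4 FPKM, others 72.0 to 73.4), Tln2 (1.38 FPKM, others 1.1 to 1.14) and Fermt3 (70.9 FPKM, others 63.0 to 64.2). CTR replicate 4 was high for Itgb7 (53.2 FPKM, others 48.0 to 48.8). Fermt2 was at 0.00711 FPKM in CTR replicate 3 and listed at 0 in the other CTR libraries. The cause was not tested.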

How the results depend on the processing

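The counts of members called stayed within 1.5 times the values given under every alternative. Leaving out each library in turn gave 20 higher and 9 to 10 lower in Neu against CTR, 7 to 9 higher and 14 to 17 lower in Neu+NETS against CTR, and 5 to 6 higher and 24 to 25 lower in Neu+NETS against Neu. No effect shared by libraries of the same replicate number was seen, which does not show that the libraries were unpaired. Deviations of same-numbered libraries correlated at -0.055 to 0.043 over 12 pairs, against -0.047 to 0.047 over 36 other pairs. In both other groups, 0 libraries correlated best with their own number. With a replicate block, 20 members were called higher and 9 lower in Neu against CTR, 9 and 16 in Neu+NETS against CTR, and 5 and 24 in Neu+NETS against Neu, and Tln1 in Neu+NETS against CTR passed (adjusted p = 0.0367). Of single members' values, 11 changed sign, none of them called. In Neu against CTR, Tns3 was -0.00091 with limma on log2(FPKM + 1), filtered or not, and -0.00096 on log2(FPKM + 0.1). In Neu+NETS against Neu, Itgb5 was 0.086 and 0.089 in the same fits and 0.015 with only the compared groups. With limma on log2(FPKM + 1), Tpm1 in Neu+NETS against Neu lost its call (adjusted p = 0.989), as did Itga6 (adjusted p = 0.0905) and, in Neu+NETS against CTR, Ptk2b (adjusted p = 0.176). Leaving out single libraries gave -0.36 to 0.19 for Itgb3 and -0.0045 to 0.025 for Parvb in Neu+NETS against CTR, and -0.032 to 0.017 for Itgb5 in Neu+NETS against Neu. Depth limits Itgb3, Tns1 and Fermt2.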

Other observations

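Platelet and megakaryocyte markers summed to 54.4 to 62.2 FPKM in Neu, 40.8 to 43.7 in Neu+NETS and 42.7 to 47.6 in CTR. Of the 9 markers, 7 were below 1 FPKM in every library. Among these was the integrin gene Itga2b, which averaged 0.0927 FPKM in Neu, 0.0440 in Neu+NETS and 0.0338 in CTR. Endothelial and fibroblast markers, cells rich in focal adhesions, summed to 0.0679 to 0.128 FPKM in Neu, 0.0427 to 0.0750 in Neu+NETS and 0 to 0.0806 in CTR. The 2 lymphocyte markers with a row stayed at or below 0.0587 FPKM in sum in every library.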
